A study of Mus musculus with 14 samples.

Results

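The genes described are leukocyte and matrix integrins, 10 genes (Itgal, Itgam, Itgax, Itgb2, Icam1, Itgb1, Itga4, Itga6, Itgav and Itgb5) of the 49315 in the deposited count table. All 10 passed the filter on low counts. They comprise beta 2 integrin chains with their ligand Icam1 and matrix-binding chains, and not all chains of either kind are among them. Itgal was chosen by its difference between the genotypes in these libraries, so that difference is described here and carries no test. The other 9 genes were taken by family, with results of these data known.

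RNA was sequenced from primary microglia, which are brain macrophages, cultured from neonatal C57BL/6 mice at P6-P7. The question was what the loss of TIMP2, a secreted inhibitor of the proteases that remodel the extracellular matrix, does to these cells. There were 14 libraries, 7 from TIMP2 KO and 7 from wild-type (WT) mice, and each came from a pool of 5 pups of both sexes. The KO is a global deletion, so every cell of the pups carried it, and an effect that arose outside microglia cannot be told apart from one within them. The cells were captured on beads against CD11b, the protein product of Itgam, and were kept in culture on coated plastic before RNA extraction, without the tissue matrix that several of these receptors bind.

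Integrins are adhesion receptors made of one alpha and one beta chain, and the pairing sets the ligand. Itgb2 pairs with Itgal to form LFA-1, which binds Icam1 on other cells, with Itgam to form Mac-1 (complement receptor 3) and with Itgax to form complement receptor 4. Itgb1 pairs with Itga4 to form VLA-4, a receptor for Vcam1 and fibronectin, and with Itga6 to form a laminin receptor, while Itgav and Itgb5 form a vitronectin receptor. In the brain, Mac-1 is used by microglia to take up complement-tagged material, and Itgax is a known mark of activated microglia.

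Levels are given as CPM, the counts of a gene scaled to the library's total with TMM factors, and differences as log2 fold changes of KO over WT from edgeR's quasi-likelihood test across all 15700 genes that passed the filter. Library totals lay between 38875344 and 48070236 counts, and the lowest count of any of the 10 genes in any library was 1696, so counting error is small beside the spread between cultures. Timp2, the deleted gene, had a lowest, median and highest level of 119.6, 121.3 and 129.2 CPM in KO and 398, 476 and 495 CPM in WT. The mean in KO came to 26.4% of that in WT (log2 -1.92, standard error (SE) 0.0464, edgeR adjusted p = 1.53e-12), and every library matched its label. Microglial markers were abundant in every library, at a sum of 8264 to 10050.1 CPM over 10 genes in KO and 7813 to 9619 CPM in WT. Of 10 lymphocyte markers, 9 had a mean under 1 CPM. Bulk libraries cannot tell fewer cells of a type from less RNA per cell, and this holds for every value given here.

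Itgal, the alpha chain of LFA-1 (ENSMUSG00000030830, chromosome 7 of GRCm38, 127296260 to 127335138, plus strand), was higher in KO. Its level was 94.1, 109.8, 118, 93.9, 120.0, 124 and 129.7 CPM in KO replicates 1 to 7. In WT replicates 1 to 7 it was 88.9, 78.6, 76.0, 63.7, 105, 85.7 and 88.5 CPM. Of the KO libraries, 5 lay above the highest WT library, and 6 of the WT libraries lay below the lowest KO library, so the groups overlapped only through KO replicates 1 and 4 and WT replicate 5. The KO mean of 113 ± 14.2 CPM and the WT mean of 83.7 ± 12.8 CPM (SD, n = 7 each) differed by 0.43 on the log2 scale (SE 0.0996). Itgal ranked 16 by p among the genes tested. It was not among the 3 genes past an adjusted p of 0.05 in edgeR (0.0191% of those tested, all 3 lower in KO), and it was among the 15 called by DESeq2 (0.0955%) and the 26 called by DESeq2 with the replicate number as a block (0.166%). Nothing is read from these calls, since this contrast selected the gene.

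The genes beside Itgal on the chromosome did not pass the test. Within 0.5 Mb of it, 53 genes were tested, of which 40 were higher and 13 lower in KO, beside 7983 higher and 7717 lower of all 15700 tested. The median of their log2 differences was 0.04, beside 0.0016 over all genes tested. Of the neighbours 0 were called by edgeR, where 3 genes were called in all. At an unadjusted p under 0.05 there were 2 of the 53, beside 3.37% of all genes tested. Itgam and Itgax lie 0.7275 and 0.7944 Mb from the end of Itgal on the same strand and are described next.

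**Figure D1:**
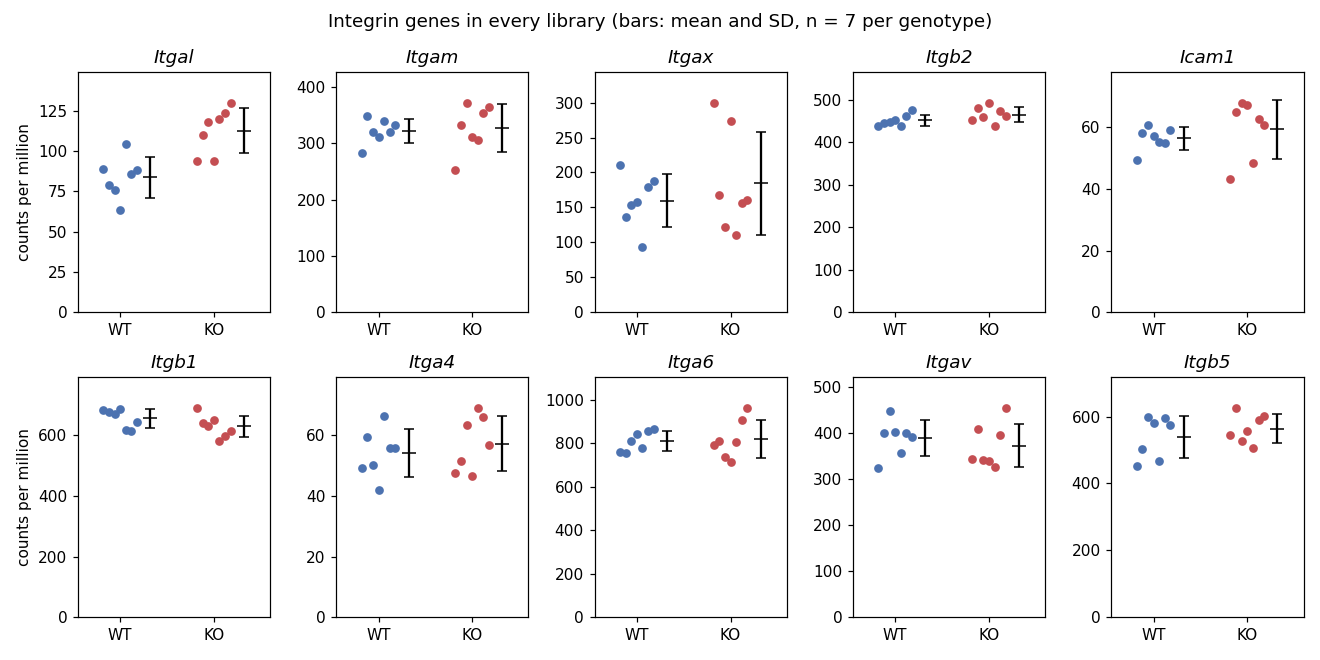
Level in CPM (vertical axis, from 0) of the 10 genes in each of the 7 WT and 7 KO libraries, points in order of replicate number, with the mean and SD beside them. The groups overlap for all 10 genes, and 5 of 7 KO points sit above the highest WT point for Itgal and for Icam1. For Icam1, KO replicates 1 and 5 are the lowest of all points, and KO replicate 7 is barely above the highest WT point. Itgax has 2 high KO points at 299 and 273 CPM.

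Of the other 9 genes, 7 were higher and 2 lower in KO, and 0 were called by edgeR, with 0 at an unadjusted p under 0.05 against 3.37% of all genes tested (529 genes, and 999 without KO replicate 1 or 995 without WT replicate 5). Itgb1 had the smallest unadjusted p of the 9 in edgeR without KO replicate 1, at 0.0430. The median of their log2 differences was 0.04, beside 0.0016 over all genes tested, and the smallest adjusted p from edgeR was 0.943. None of the 10 genes had groups that did not overlap, as did 0.0828% of all genes tested. For these genes the 95% interval of the difference is given with the values.

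Itgam, the alpha chain of Mac-1 (ENSMUSG00000030786, chromosome 7, 128062640 to 128118491, plus strand), had a lowest, median and highest level of 252, 333 and 371 CPM in KO and 283, 319 and 349 CPM in WT. KO replicate 1 was the lowest of all 14 libraries, and the KO range held the whole WT range. The means were 327 ± 41.8 CPM for KO and 322 ± 21.6 CPM for WT (SD, n = 7 each), and the log2 difference of 0.02 had a 95% interval from -0.14 to 0.18. Because the cells were captured by this gene's product, its level in these cultures is not independent of the selection.

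Itgax, the alpha chain of complement receptor 4 (ENSMUSG00000030789, chromosome 7, 128129547 to 128150657, plus strand, 11.06 kb beyond Itgam), was the most variable of the 10. It had 299, 167.7, 122, 273, 110.2, 157 and 160.4 CPM in KO replicates 1 to 7. In WT replicates 1 to 7 it had 210.2, 136, 154, 158, 92.7, 179 and 188 CPM. KO replicates 1 and 4 lay far above every other library, and the remaining 5 KO libraries lay within the WT range. Its coefficient of variation was 39.7% in KO and 24.0% in WT, compared with 12.6% and 15.3% for Itgal. The means of 184 ± 73.1 CPM for KO and 160 ± 38.4 CPM for WT (SD, n = 7 each) gave a log2 difference of 0.21 with a 95% interval from -0.28 to 0.69, which covers a change as large as that of Itgal. The difference was 0.05 without KO replicate 1, 0.08 without KO replicate 4 and 0.11 without WT replicate 5.

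Itgb2, the beta chain shared by all 3 of these alpha chains (ENSMUSG00000000290, chromosome 10, 77530252 to 77565708, plus strand), was the steadiest of the 10. Its lowest, median and highest level was 438, 461 and 492 CPM in KO and 438, 448 and 476 CPM in WT, with a coefficient of variation of 3.91% and 2.99%. The groups overlapped almost fully. With means of 465 ± 18.2 CPM for KO and 451 ± 13.5 CPM for WT (SD, n = 7 each), the log2 difference of 0.04 had a 95% interval from -0.02 to 0.11, the narrowest of the 10. Itgal, the chain it pairs with in LFA-1, stood at 0.43 (SE 0.0996). That value selected Itgal, so no difference between the 2 chains is read from it.

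Icam1, the ligand of LFA-1 and Mac-1 (ENSMUSG00000037405, chromosome 9, 21015985 to 21028817, plus strand), had a lowest, median and highest level of 43.3, 62.8 and 67.8 CPM in KO and 49.3, 57.1 and 60.8 CPM in WT. KO replicates 1 and 5 were the lowest of all libraries, whereas the other 5 KO libraries lay above the highest WT library. The lowest of those 5, KO replicate 7, stood at 60.85 CPM against 60.79 CPM in WT replicate 3. The means were 59.3 ± 9.58 CPM for KO and 56.4 ± 3.77 CPM for WT (SD, n = 7 each), with a log2 difference of 0.07 and a 95% interval from -0.12 to 0.27.

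Promoter sequence from RefSeq (GRCm38.p6) was at hand for 7 of the 10 genes, from 250 bases before each start to 50 after it. Windows of 60 bases are shown for Itgam, Itgax and Icam1, the beta 2 alpha chains and the ligand with an entry and a motif, each read 5′ to 3′ on the plus strand with the motif in capitals. Itgam (chr7:128062530-128062589) holds GAGGAAG, a site of the kind bound by PU.1, the lineage factor of macrophages. Itgax (chr7:128129468-128129527) holds TGAGTCA, of the kind bound by AP-1, and Icam1 (chr9:21015761-21015820) holds GGAAATTCC, of the kind bound by NF-kB.
Itgam: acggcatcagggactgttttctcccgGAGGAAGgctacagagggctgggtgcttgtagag
Itgax: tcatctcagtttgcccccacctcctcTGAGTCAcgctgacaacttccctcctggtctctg
Icam1: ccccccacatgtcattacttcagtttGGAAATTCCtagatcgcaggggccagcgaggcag
The motifs begin 84, 56 and 153 bases before the RefSeq start. On either strand, GAGGAAG occurs in 13.6% of the 32851 promoters of the table, TGAGTCA in 5.2% and GGAAATTCC in 0.317%. A TATAAA match was also found for Icam1 and occurs in 13.6% of promoters. Of the 7 promoters, GAGGAAG was in those of Itgam and Itgav, TGAGTCA in Itgax alone and GGAAATTCC in Icam1 alone. The motifs were picked after these promoters had been read, and a match describes letters and no binding.

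Among the chains that bind matrix, Itgb1 (ENSMUSG00000025809, chromosome 8, 128685654 to 128733200, plus strand), the beta chain of the fibronectin and laminin receptors, had a lowest, median and highest level of 582, 629.6 and 688 CPM in KO and 615, 669 and 686 CPM in WT. The means were 629.0 ± 35.5 CPM for KO and 656 ± 30.7 CPM for WT (SD, n = 7 each), with a log2 difference of -0.06 and a 95% interval from -0.14 to 0.03. KO replicate 1 was the highest library of all, 3 KO libraries lay within the WT range and 3 lay below it.

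Itga4, the alpha chain of VLA-4 (ENSMUSG00000027009, chromosome 2, 79255426 to 79333123, plus strand), had a lowest, median and highest level of 46.6, 57.0 and 68.9 CPM in KO and 42.0, 55.7 and 66.6 CPM in WT. The means were 57.3 ± 8.99 CPM for KO and 54.2 ± 7.89 CPM for WT (SD, n = 7 each), with a log2 difference of 0.08 and a 95% interval from -0.15 to 0.31. WT replicate 4, the lowest library for Itgal, was the lowest for Itga4 too.

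Itga6, the alpha chain of a laminin receptor (ENSMUSG00000027111, chromosome 2, 71745616 to 71858416, plus strand), had 716, 806 and 959.9 CPM for the lowest, median and highest KO library and 757, 810.0 and 865 CPM in WT. The means of 818 ± 87.7 CPM for KO and 810.0 ± 45.9 CPM for WT (SD, n = 7 each) gave a log2 difference of 0.01 with a 95% interval from -0.12 to 0.15. KO libraries held both the lowest and the highest value.

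Itgav (ENSMUSG00000027087, chromosome 2, 83724397 to 83806916, plus strand), the alpha chain of the vitronectin receptors, had a lowest, median and highest level of 326, 344 and 453 CPM in KO and 325, 399.6 and 447 CPM in WT. Its log2 difference of -0.06 had a 95% interval from -0.23 to 0.11. Itgb5 (ENSMUSG00000022817, chromosome 16, 33829665 to 33949338, plus strand), one of its beta chains, had 505, 557 and 624 CPM in KO and 451, 576 and 599 CPM in WT, a log2 difference of 0.07 with a 95% interval from -0.09 to 0.22. The ranges of KO and WT overlapped for both genes, and the means were 373 ± 47.1 and 389 ± 38.9 CPM for Itgav and 564 ± 42.9 and 539 ± 63.8 CPM for Itgb5 (SD, n = 7 in KO and in WT).

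**Figure D2:**
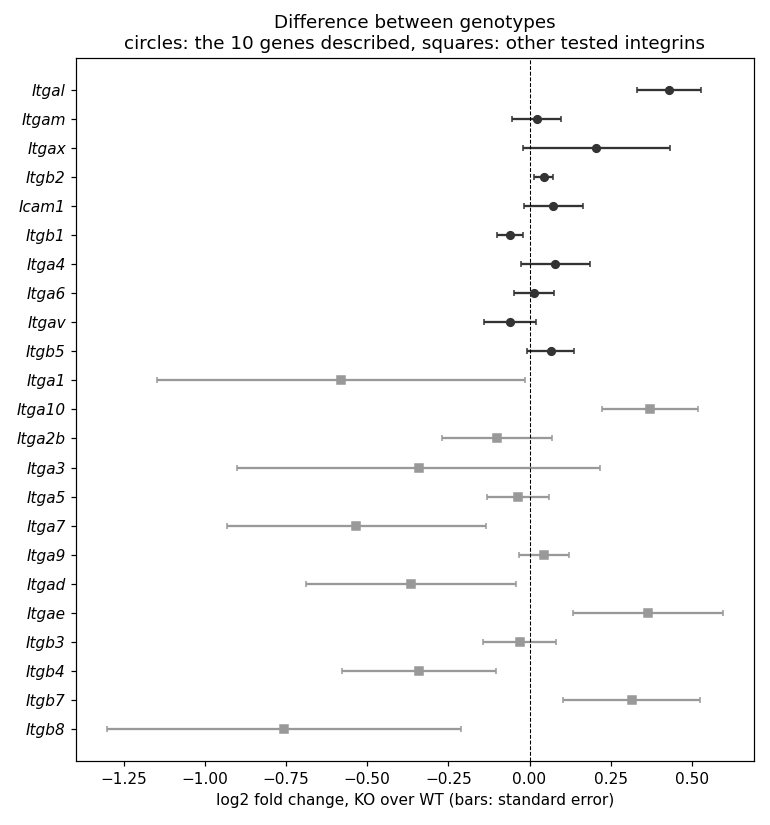
Log2 fold change of KO over WT (horizontal axis) with its SE for the 10 genes (circles) and the 13 other integrin genes that were tested (squares). Itgal stands at 0.43, Itgb2 has the shortest bar, and the other integrins range from -0.76 for Itgb8 to 0.37 for Itga10.

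The other integrin genes were looked at as a fixed list of 18, of which 13 passed the filter. In edgeR 0 were called, with 1 at an unadjusted p under 0.05, and 4 were higher and 9 lower in KO, the median of the log2 differences being -0.10. The most abundant in WT were Itga5, the alpha chain of the classical fibronectin receptor, at 127 ± 14.3 CPM, Itga9 at 59.3 ± 5.1 CPM and Itgb3, the other well known partner of Itgav, at 29.7 ± 4.26 CPM (SD, n = 7). Their log2 fold changes were -0.04, 0.05 and -0.03. The remaining 10 (Itga1, Itga2b, Itga3, Itga7, Itga10, Itgad, Itgae, Itgb4, Itgb7 and Itgb8) had WT means of 0.271 to 5.48 CPM. Itga10, at the largest positive value, had 1.4 ± 0.271 CPM for KO and 1.08 ± 0.172 CPM for WT (SD, n = 7 each), or 0.37 on the log2 scale (SE 0.148, edgeR adjusted p = 0.943). Itgae and Itgb7, the chains of a lymphocyte integrin, stayed under 0.479 CPM on average. The 5 that did not pass the filter (Itga2, Itga8, Itga11, Itgb2l and Itgb6) never exceeded 0.354 CPM in a library.

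Ligands, adaptors and signalling genes of the integrin pathway were counted in the same way, and 0 genes of these lists were called by edgeR. Of 10 cell surface ligands besides Icam1, 7 were tested, with 2 higher and 5 lower. Vcam1, the cell surface ligand of VLA-4, had 5.3 ± 3.74 CPM for KO and 9.19 ± 6.45 CPM for WT (SD, n = 7 each). Of 24 matrix and soluble ligands 20 were tested, with 7 higher and 13 lower in KO, and those with the smallest p were the laminin and collagen genes Lama2, Col4a1 and Lamb1 at log2 fold changes of -0.62, -0.57 and -0.64. All of these are low in these cultures, at 0.721, 5.19 and 1.8 CPM in WT. Of 19 activation genes and adaptors 17 were tested, with 9 higher and 8 lower. Rassf5, which carries the Rap1 signal to LFA-1, had a log2 fold change of 0.12 (SE 0.0678), Sharpin, an inhibitor of integrin activation, one of 0.06 (SE 0.0313), and Fermt2, a kindlin, one of -0.69 (SE 0.471). Of 24 signalling genes all were tested, with 12 higher and 12 lower. The kinase Fyn had 74.5 ± 3.62 CPM for KO and 81.1 ± 2.96 CPM for WT (SD, n = 7 each), or -0.12 on the log2 scale (SE 0.0332, edgeR adjusted p = 0.943), and it was the single gene of the 4 lists at an unadjusted p under 0.05. Ptk2, the focal adhesion kinase, and Vav3 had log2 fold changes of -0.18 (SE 0.0923) and -0.13 (SE 0.0692).

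To set the genes beside each other, CPM was divided by the length of the union of each gene's exons in kb. In WT the 10 fell in steps. Itgb1 had 161 ± 7.52 CPM per kb, Itgb5 152 ± 17.96 and Itgb2 148 ± 4.41 (SD, n = 7), and neither neighbouring pair in this top group differed beyond its spread (exact two-sided sign-flip permutation test over 7 libraries, adjusted p = 0.398 and 0.686 over the 9 neighbouring pairs). Itga6 followed at 89.7 ± 5.09 CPM per kb and Itgam at 64.1 ± 4.31 CPM per kb, each below the gene above it in 7 of 7 libraries (exact sign-flip adjusted p = 0.0281 for both, whose unadjusted 0.0156 is the smallest this test can give).

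Itgav with 36.2 ± 3.62 CPM per kb and Itgax with 33.2 ± 7.98 (SD, n = 7) came next, Itgav below Itgam in 7 of 7 libraries, and these could not be ordered (exact sign-flip adjusted p = 0.482). Icam1 with 12.9 ± 0.864 and Itgal with 12.7 ± 1.95 CPM per kb could not be ordered either (adjusted p = 0.734, exact sign-flip), while Itgax was above Icam1 and Itgal above Itga4 (3.88 ± 0.565 CPM per kb) in 7 of 7 libraries. The 3 beta chains were thus above every alpha chain on this scale, and Itgal was the lowest of the 3 alpha chains of Itgb2 among the 10 genes. Itgad, the remaining alpha chain of Itgb2, had 0.0602 ± 0.0149 CPM per kb in WT (SD, n = 7). Of the matrix-binding chains outside the 10, Itga5 had 25.7 ± 2.9, Itga9 7.71 ± 0.663 and Itgb3 5.03 ± 0.721 CPM per kb in WT (SD, n = 7), all above Itga4. In KO the order per kb of exon union was the same but for 3 neighbouring pairs that could not be ordered in WT. Itgb5 stood above Itgb1, Itgax above Itgav, and Itgal above Icam1. In KO, Itgal had 17.2 ± 2.15 and Icam1 13.6 ± 2.2 CPM per kb (SD, n = 7).

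**Figure D3:**
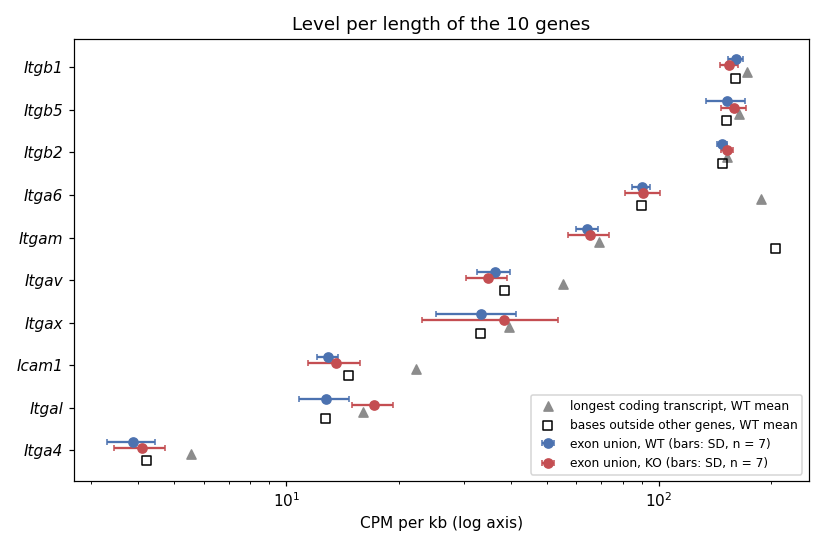
Level per length of the 10 genes in CPM per kb (log axis), with the mean and SD of 7 WT and 7 KO libraries per kb of exon union, and the WT mean per kb of the longest coding transcript and per kb of the exon bases that no other gene overlaps. The beta chains lie to the right, and Itga6 and Itgam move most with the choice of length, to 188 and 205 CPM per kb.

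The order of the WT means depends on the length used for 2 genes. Per kb of the longest coding transcript Itga6 rose to 188 CPM per kb and stood first. On that length Icam1 had 22.3 and Itgal 16.0 CPM per kb in WT, and Itgav 55.1 and Itgax 39.5. These pairs thus lay farther apart than per kb of exon union, where they could not be ordered. No test was run on that length, and the KO order was not taken on it. Itgam shares 3450 bases, or 68.7% of its exon union, with Gm49368 on the same strand, to which the table gave 28 to 60 counts. How reads that fit both genes were counted is not given in the sources used here. If they were left out, only 1574 bases could gather reads, and per kb of those bases Itgam would stand first at 205 ± 13.7 CPM per kb (SD, n = 7). The comparison of Itgam between genotypes uses the same bases in every library. Icam1, Itga4 and Itgav overlap antisense genes (Gm47079, Cerkl and Gm13684) over 511, 1124 and 634 bases, which on average held 2, 11.6 and 36.7 counts a library, and without stranded counts reads of both strands cannot be told apart there. Itgax shares 8.02% of its 50-base words with the transcripts of Itgad, and Itgal shares 0 with any other gene.

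Since the 3 alpha chains share Itgb2 as partner, their shares of the summed alpha level per kb were taken. In WT Itgam made up 58.4% ± 5.35, Itgax 30.0% ± 6.26 and Itgal 11.6% ± 1.9 of the sum (SD, n = 7). In KO the shares were 54.3% ± 8.26, 31.3% ± 10.5 and 14.4% ± 2.55 (SD, n = 7). The share of Itgal in single libraries ran from 10.7% to 17.9% in KO and from 9.27% to 15.5% in WT, so the genotypes overlapped. Over the bases outside other genes Itgam would hold 81.6% ± 3.34 of the WT sum and Itgal 5.08% ± 0.763 (SD, n = 7). Of the matrix chains, Itgav stood at 0.239 ± 0.0153 of Itgb5 per kb in WT and 0.218 ± 0.0152 in KO (SD, n = 7).

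How the 10 genes varied between cultures of one genotype was not used to choose them. After the genotype means were subtracted from log2 CPM, 45 pairs were correlated over the 14 libraries by 100000 permutations within genotype. Of these, 6 passed an adjusted p of 0.05 over the 45 pairs by Pearson's r, 3 positive and 3 negative, 3 of them by Spearman's rho as well, and 13 had an unadjusted p under 0.05. The genes share the same libraries and scaling, so the pairs are not independent. The permutations also treat the 14 libraries as independent, and their batches are not known here. Replicate 1 was the lowest library of each genotype for Itgam and Icam1. Replicate 5 was the highest for Itga4 and the lowest for Itgax in each. Over all tested genes, the deviations of KO and WT replicate 5 correlated at 0.74. Batches shared by same-numbered libraries would make the p-values here and for the cell type markers below too small, which was not tested.

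The closest pair was Itgav with Itgb5, the chains of one receptor (r = 0.82, adjusted permutation p = 0.00585; rho = 0.80, adjusted p = 0.0103; r = 0.82 without KO replicate 7 and WT replicate 1). Itgal rose and fell with Itga4 (r = 0.81, adjusted permutation p = 0.0208; rho = 0.72, adjusted p = 0.0688), with r of 0.82 within KO and within WT, and r = 0.67 without KO replicate 4 and WT replicate 4. Itgal and Itga4 have different beta partners, and both ran against Itgb1. For Itgal with Itgb1 r was -0.75 (adjusted permutation p = 0.0225; rho = -0.68, adjusted p = 0.0756; r = -0.75 without KO replicate 4 and WT replicate 4). For Itgb1 with Itga4, which pair in VLA-4, r was -0.80 (adjusted permutation p = 0.0208; rho = -0.81, adjusted p = 0.0211; r = -0.73 without KO replicates 1 and 5).

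Itgax ran against Itga4 (r = -0.77, adjusted permutation p = 0.0260; rho = -0.80, adjusted p = 0.0211; r = -0.67 without KO replicate 1 and WT replicate 5). Its r with Itgal was -0.58, which did not pass (adjusted permutation p = 0.123; rho = -0.53, adjusted p = 0.253; r = -0.60 without KO replicate 4 and WT replicate 4): the KO libraries highest in Itgax, replicates 1 and 4, were the lowest of the KO libraries in Itgal. Itgam with Icam1 gave r = 0.79 (adjusted permutation p = 0.0420; rho = 0.55, adjusted p = 0.260), which fell to r = 0.43 without KO replicate 1 and WT replicate 1 and so rests on those libraries. No pair of Itgb2 with Itgal, Itgam or Itgax was among the 6, at r of -0.22, 0.24 and 0.44.

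**Figure D4:**
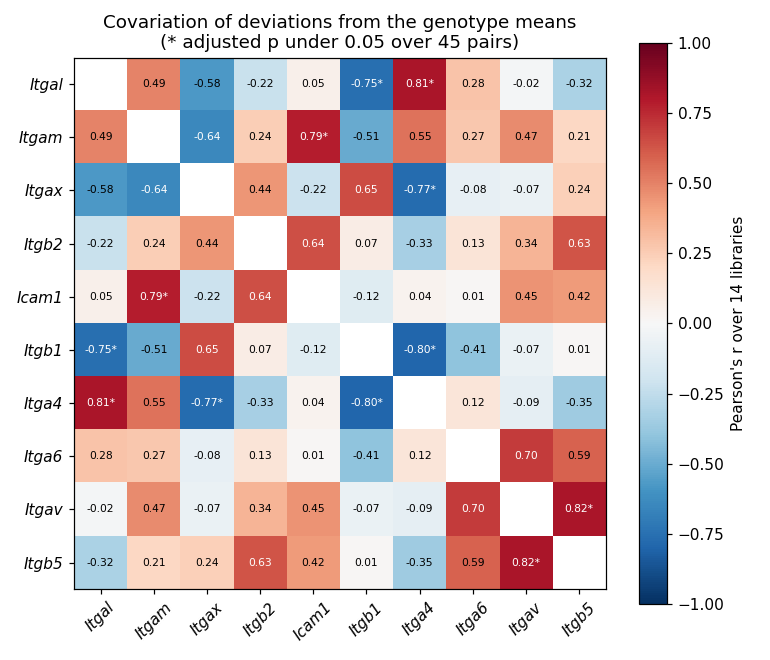
Pearson's r over 14 libraries between each pair of the 10 genes, from log2 CPM after the genotype means were subtracted, on a colour scale from -1 to 1, with an asterisk where the adjusted p over 45 pairs was under 0.05. Itgal is close to Itga4 at 0.81 and opposite to Itgb1 at -0.75, and Itgav lies with Itgb5 at 0.82.

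Of all tested genes, the 5 whose deviations were most like those of Itgal over the 14 libraries were Cmah (r = 0.92), Zbtb1 (r = 0.92), Gm13241 (r = 0.91), Top1 (r = 0.90) and Rab32 (r = 0.89). They are given as a description of likeness. The genotype differences of these 5 are given as values only, since Itgal was chosen for its own difference and they were not. Zbtb1, Top1 and Rab32 had 50.6, 175 and 248 CPM in WT. Their log2 fold changes were 0.05 (SE 0.0442), 0.06 (SE 0.0466) and 0.10 (SE 0.0895). Gm13241 had 3.06 CPM in WT and a log2 fold change of 0.17 (SE 0.127). Cmah had 0.421 CPM in WT and a log2 fold change of 0.53 with a SE of 0.367.

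Markers of other cell types were summed in each library since such cultures can hold other brain cells. The 10 astrocyte markers (the most abundant being Gfap, Slc1a3 and Aqp4 at 22.2, 17.3 and 15.6 CPM) were lower in KO for 10 of 10 genes (median log2 difference -0.66), and 0 were called by edgeR. Their sum ran from 33.9 to 153 CPM in KO and from 38.9 to 295 CPM in WT, and WT replicates 4 and 3 were the highest at 295 and 203 CPM. Those libraries were the lowest for Itgal, at 63.7 and 76.0 CPM. Without both, the log2 fold change of Itgal was 0.34 (SE 0.0911), a choice made after the data were seen. It was 0.35 (SE 0.0895) with a single score in the fit, the mean log2 CPM of the astrocyte, oligodendrocyte lineage and neuron markers pooled. Within WT, Itgal had r = -0.93 with the astrocyte score (exact permutation p = 0.00496, adjusted p = 0.0524 over 16 relations; rho = -0.96, exact permutation p = 0.00278; r = -0.76 without the 2 farthest libraries, n = 7 in all), and within KO r = -0.03 (exact permutation p = 0.936, adjusted p = 0.981; rho = 0.18). Over both genotypes r was -0.55 (permutation p = 0.0557, adjusted p = 0.181 over 8 lists; rho = -0.50; r = -0.61 without KO replicate 4 and WT replicate 4). The part of these cells in the difference of Itgal was not tested.

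**Figure D5:**
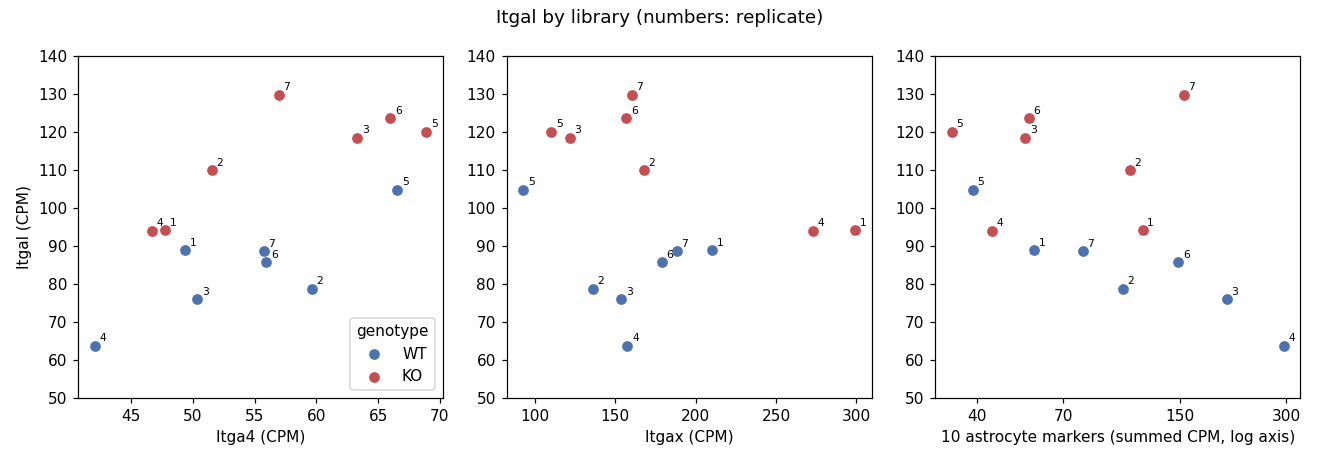
Itgal in CPM (vertical axis) against Itga4 in CPM, Itgax in CPM and the summed CPM of 10 astrocyte markers (log axis), 1 point a library labelled with its replicate number. Itgal goes up with Itga4 in both genotypes, KO replicates 1 and 4 lie apart at high Itgax, and the WT points fall from 105 to 63.7 CPM as astrocyte markers rise.

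The other lists overlapped between the genotypes as well. Oligodendrocyte lineage markers summed to 146 to 189 CPM in KO and 153 to 207 CPM in WT, neuron markers to 22.7 to 53.0 and 27.7 to 59.6 CPM, endothelial and mural markers to 46.5 to 66.9 and 36.9 to 58.0 CPM, and fibroblast markers to 2.56 to 11.8 and 3.44 to 14.5 CPM. Within WT, the oligodendrocyte lineage score had r = -0.89 with Itgal (exact permutation p = 0.00655, adjusted p = 0.0524; rho = -0.96; r = -0.65 without the 2 farthest libraries, n = 7 in all), and within KO r = -0.02 (exact permutation p = 0.953, adjusted p = 0.981; rho = 0.07). The microglial score went with Itgal within KO (r = 0.86, exact permutation p = 0.0119, adjusted p = 0.0635; rho = 0.75; r = 0.43 without the 2 farthest libraries, n = 7 in all), and within WT r was 0.01 (exact permutation p = 0.981, adjusted p = 0.981; rho = 0.25). None of these 16 relations passed the threshold, and the difference between the genotypes in them was not tested. Border macrophage markers summed to 3087 to 4741 CPM in KO and 3217 to 4654 CPM in WT, of which Stab1 gave 3235 CPM on average, a gene that microglia express too. Leukocytes of the blood are also known to carry Itgal. Lymphocyte markers summed to 5.58 to 9.28 CPM in KO and 5.11 to 8.03 CPM in WT, of which Cd79b gave 6.77 CPM on average. Neutrophil and monocyte markers summed to 4.75 to 23.9 CPM in KO and 2.66 to 15.6 CPM in WT, and 8 of the 11 had a mean under 1 CPM. The 4 of them that were tested were all higher in KO, as Itgal was, with a median log2 difference of 0.55 and 0 called by edgeR. S100a9 had the largest value at 1.02 (SE 0.799). Their part in the difference of Itgal was not tested.

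Across the 10 genes and 8 marker lists, 3 of 80 correlations passed an adjusted permutation p of 0.05, and 0 of them were with Itgal. Itgav and Itgb5, the closest pair above, both rose with the astrocyte score (r = 0.70 and 0.73, adjusted permutation p = 0.0870 and 0.0787). Both rose with the oligodendrocyte lineage score too (r = 0.67 and 0.74, adjusted permutation p = 0.126 and 0.0722). None of these passed, and the part of such cells in that pair was not tested. Of those that passed, Itgb1 went with the fibroblast score (r = 0.87, adjusted permutation p = 0.0152, rho = 0.77, and r = 0.85 without KO replicates 1 and 5). Itgb1 ran against the microglial score (r = -0.71, adjusted permutation p = 0.0453, rho = -0.86, and r = -0.61 without the same libraries). Of the 6 fibroblast markers, 5 had a mean under 1 CPM, and Col1a2 was the most abundant at 5.04 CPM, so most genes of that score lie near the floor. Itgb5 ran against the border macrophage score (r = -0.89, adjusted permutation p = 0.0152; rho = -0.85; r = -0.80 without WT replicates 1 and 5). Of the 8 border macrophage markers, 3 had a mean under 1 CPM, and the 7 that were tested weigh equally in that score.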

How the data were processed

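Bulk RNA of 14 microglial cultures was measured, 7 per genotype, and groups were taken from the genotype labels. The sample labels do not say whether same-numbered replicates share a litter or day across genotypes. Per the submitters' processing notes, the authors trimmed reads with Trimmomatic 0.36, aligned them to GRCm38 with STAR 2.5.2b and counted them per gene with featureCounts of Subread 1.5.2. The deposited values are whole-number counts per Ensembl gene, not normalized. The strand setting, the treatment of reads shared by genes and the annotation release are not given in the sources used here. The study's own model had a batch term, and the batch of a library is not given here, so none was fitted.

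Gene names and lengths came from GENCODE M21 (49056 of 49315 identifiers matched). A filter on low counts (filterByExpr with a minimum of 10 and a minimum total of 15) left 15700 genes, which were tested with edgeR 4.0.16 in R 4.3.3 by the quasi-likelihood test with TMM factors and genotype alone, two-sided, with Benjamini-Hochberg adjustment over all 15700 at a threshold of 0.05. Log2 CPM used a prior count of 1, and 95% intervals came from the fitted standard error. Per-library CPM, levels per kb, shares and permutation tests used Python 3.11.15 with numpy 2.4.6. The scripts were tested on simulated data. The members and lists were chosen with earlier results of these data known. The text names the 10 genes, Timp2, every other tested integrin, up to 3 genes of each list with the smallest p (not all printed), up to 3 most abundant markers of a list, and the 5 genes most like Itgal. Alternatives were other scaling factors, no filter on low counts, DESeq2 1.42.0, the replicate number as a block, a single pooled marker score as covariate, leaving out each library, leaving out the 2 libraries highest in astrocyte markers, and other lengths.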

Additional observations from a re-analysis of the deposited data

Results flagged for a closer look

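Of 40 groups of 7 libraries examined, 3 had a library farther from its nearest neighbour than Dixon's 95% critical value allows, where chance gives about 1 in 20. None of the 10 integrin genes was among them. Timp2 in KO replicate 4 stood at 129.2 CPM, with the nearest KO library at 122.7 and the farthest at 119.6 CPM. The summed lymphocyte markers of WT replicate 1 were 5.11 CPM, with the nearest WT library at 6.94 and the farthest at 8.03 CPM. The summed neutrophil and monocyte markers of WT replicate 2 were 15.6 CPM, with the nearest WT library at 7.94 and the farthest at 2.66 CPM.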

How the results depend on the processing

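Over 22 alternatives the log2 fold change of Itgal stayed between 0.34 and 0.49 (0.37 to 0.49 when single libraries were left out), and its adjusted p from 3.11e-06 to 1.00. It was past the threshold only in DESeq2 (15 genes called, 1 of the 10) and in DESeq2 with the replicate block (26 genes called, 1 of the 10). edgeR with the replicate block called 3 genes and 0 of the 10, with 921 genes at an unadjusted p under 0.05 against 529 without it. With this block the SE of Itgal was 0.0668, and Itgb1 had an unadjusted p of 0.0187 (adjusted 0.771). In DESeq2 with the replicate block Itgb1 had an unadjusted p of 0.00144 (adjusted 0.322). Itgal was higher in KO in 7 of 7 same-numbered pairs, from which nothing is read, since this contrast selected the gene. Same-numbered libraries had deviations correlated from -0.20 to 0.74 (mean 0.10, beside -0.02 for other pairs), over 0.1 in 3 of 7 pairs. The labels give no shared litter, batch or day, so a pairing by number is not established, and the batches of the study could not be modelled. Single-library omissions gave 3 to 4 calls in all and 0 of the 10. The sign turned for Itgam (-0.012 to 0.074) and Itga6 (-0.026 to 0.045) when single libraries were left out, for Itga4 with the marker score (-0.016) and without the 2 libraries highest in astrocyte markers (-0.0048), and for Itgav with the marker score (0.017). All these values lie inside the 95% intervals given above, and the cause was not tested. Itgax, Itgb2, Icam1, Itgb1 and Itgb5 kept their direction in all 22, but their sizes moved. Without single libraries Itgax lay from 0.05 (without KO replicate 1) to 0.30, Icam1 from 0.04 (without KO replicate 3) to 0.13 (without KO replicate 1), and Itgb5 from 0.03 (without WT replicate 1) to 0.09. With the marker score Itgb5 stood at 0.14 (edgeR unadjusted p = 0.0343, adjusted 0.9996). With upper-quartile factors 9 pairs of genes were correlated in place of 6.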
